A study of Mus musculus with 6 samples.

Results

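The TRIM (tripartite motif) genes were described here in dendritic cells sorted from the spleen. They were taken as every probe set annotated with exactly 1 gene symbol, that symbol being Trim followed by a number and an optional letter. This gave 58 genes, each with 1 probe set, among 19938 genes on the array that had a probe set of their own. The cells were 3 populations from untreated wild-type (WT) mice, each measured on 2 microarrays. They were cDC1 (CD24+CD172a-), the CD24+ fraction of cDC2 (CD24+CD172a+) and the CD24- fraction of cDC2 (CD24-CD172a+). The study asks how the CD24+ and CD24- fractions of cDC2 relate to each other and to cDC1. The strain, sex and age of the mice are not given in the sources used here. Nothing in the labels says that the 2 arrays of a population came from separate animals or sorts, so each p-value measures the spread between those arrays, which may be technical.

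As background, a TRIM protein carries a RING finger, 1 or more B-box zinc fingers and a coiled coil, followed by a variable end that often is a B30.2 (PRYSPRY) domain. The RING finger binds a ubiquitin-charged E2 enzyme and passes ubiquitin on to a substrate, which makes most family members E3 ubiquitin ligases. Trim14, Trim16, Trim29, Trim44 and Trim66 are known to lack the RING finger, so the gene symbol alone does not make a member a ligase. Many TRIM proteins restrict viruses or tune the sensors and kinases that lead to type I interferon, and many TRIM genes are themselves induced by interferon. Conventional dendritic cells fall into cDC1, which cross-present antigen to CD8 T cells, and cDC2, which prime CD4 T cells.

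Values are log2 of the deposited intensities. The median of all probe sets was 4.91 on this scale and the 25th percentile was 3.72. Array medians ran from 29.5 to 30.6 on the linear scale. Arrays of 1 population correlated with r between 0.992 and 0.993 over the 19938 genes. Between an array of CD24+ cDC2 and one of CD24- cDC2 r was 0.988 to 0.989, and between a cDC1 and a cDC2 array it was 0.959 to 0.963. The markers of cDC1 followed the labels, with 8 of 8 above the median in cDC1 and 6 of 8 in each cDC2 population, and a summed level of 13.0 to 13.2 there against 9.26 to 9.57 in CD24+ cDC2 and 9.35 to 9.38 in CD24- cDC2. The summed cDC2 markers were at 8.04 to 8.09 in cDC1, at 11.3 to 11.4 in CD24+ cDC2 and at 11.5 to 11.6 in CD24- cDC2. In whole populations of sorted cells, fewer cells that carry a transcript and less of it per cell cannot be told apart.

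Above and below the array median. Averaged over the 6 arrays, 32 of the 58 TRIM genes (55.2%) lay above the array median and 26 (44.8%) below it. Among all genes 52.9% lay above, so the family was split much like the array as a whole. Of the TRIM genes, 26 were above the median on all 6 arrays, 22 on none and 10 on some arrays only. By population, 30 were above the median in cDC1, 33 in CD24+ cDC2 and 32 in CD24- cDC2. The members closest above the line were Trim67 by 0.05, Trim13 by 0.11 and Trim47 by 0.20, and those closest below it were Trim32 by 0.04, Trim65 by 0.08 and Trim16 by 0.10. A probe set's brightness also depends on its probes, so a place above or below the line does not rank one gene's transcripts against another's. In Trim38, Trim55, Trim69 and Trim75 all 3 population means were under the 25th percentile, which was treated as background. Over the 58 genes in 3 populations the SD between the 2 arrays had a median of 0.09. The highest was 0.67, for Trim12c in CD24+ cDC2.

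**Figure D1:**
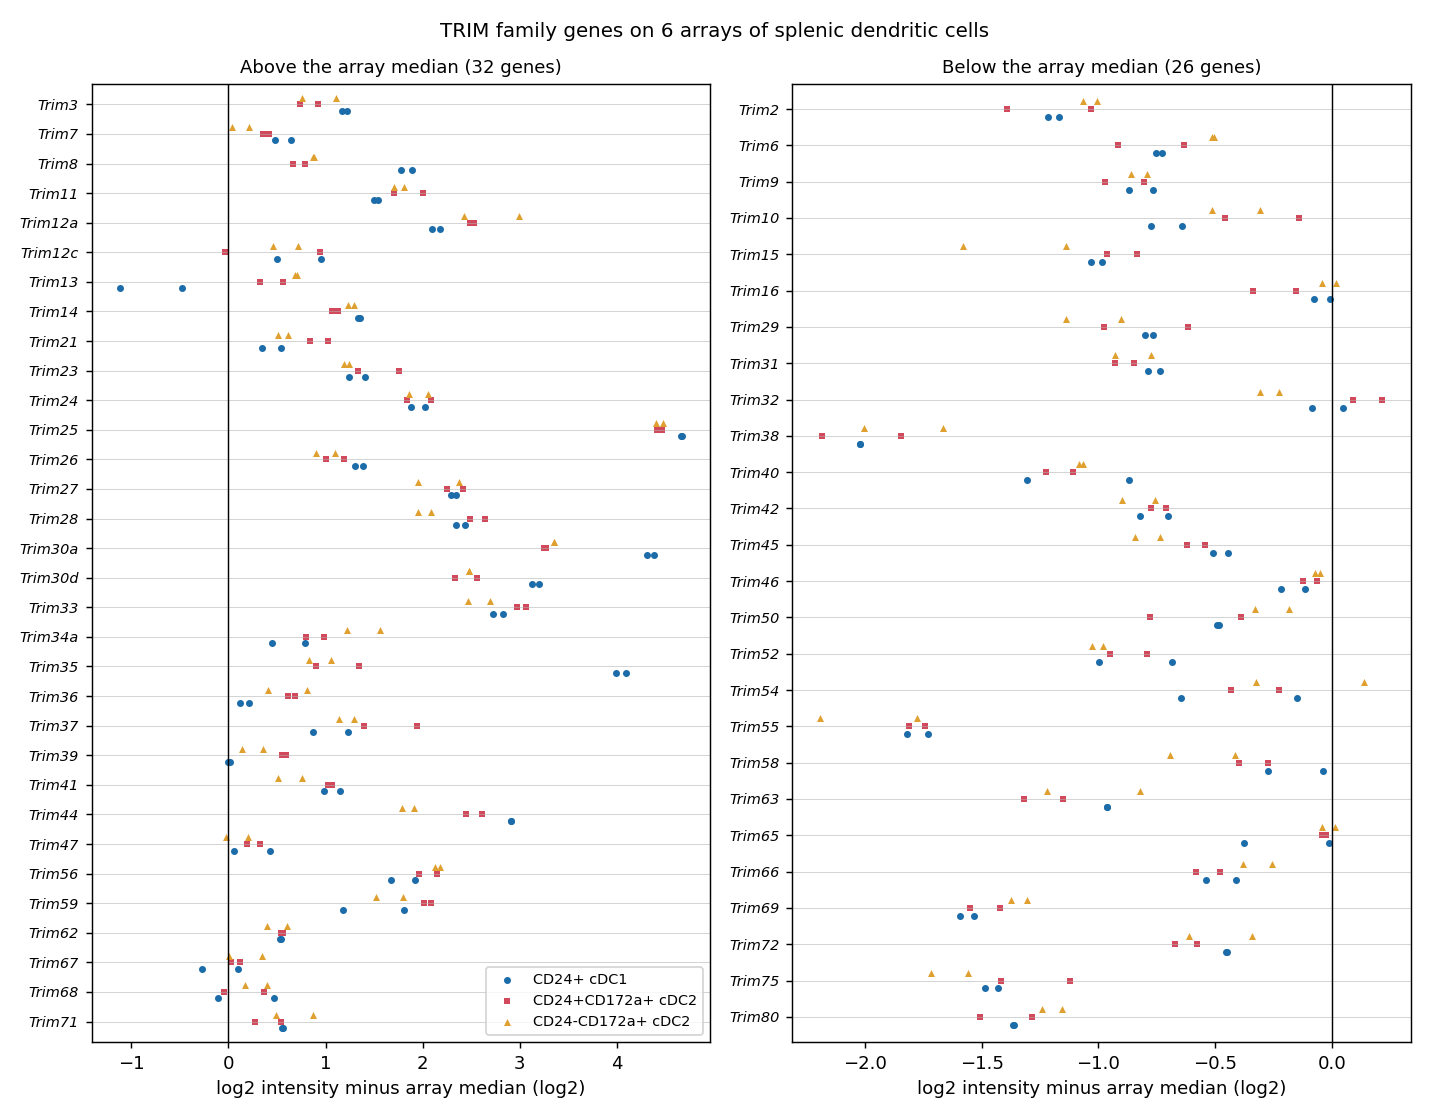
The horizontal axes give log2 intensity minus the array median for each of the 58 TRIM genes, with 1 symbol per array (2 arrays in each population) and the vertical line at the median; the 32 genes whose mean lies above it are on the left, the 26 below it on the right, and the panels have different scales. For Trim35, Trim30a and Trim30d the cDC1 arrays stand apart to the right of all 4 cDC2 arrays, and for Trim13 to the left.

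Every TRIM gene that passed the test was above the median by its mean over the 6 arrays. For Trim13 this held through its cDC2 arrays, since both of its cDC1 arrays were under the median. Tests were made with limma on all 6 arrays and all 19938 genes, and a gene was called at a Benjamini-Hochberg adjusted p under 0.05. Of the 58 genes, 10 (17.2%) were called in at least 1 of the 3 comparisons, against 19.3% of all genes. Between CD24+ cDC2 and cDC1, 7 TRIM genes were called (12.1%, background 13.6%), 3 higher (background 7.11%) and 4 lower (background 6.52%) in CD24+ cDC2. Between CD24- cDC2 and cDC1, 8 were called (13.8%, background 15.7%), 3 higher (background 6.83%) and 5 lower (background 8.91%) in CD24- cDC2. Between the 2 cDC2 populations 1 was called (1.72%, background 1.46%), which was Trim44, higher in CD24+ cDC2. For that comparison the background was 0.808% of genes higher and 0.652% lower. These shares were near the background, so the family did not stand apart by its number of calls. The median difference over the 58 genes was -0.03 for CD24+ cDC2 minus cDC1 (all genes -0.03), -0.01 for CD24- cDC2 minus cDC1 (all genes 0.00) and -0.05 for CD24+ minus CD24- cDC2 (all genes -0.01). Both comparisons against cDC1 use the same 2 cDC1 arrays, so their values are given side by side and are not independent of each other.

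Among the 32 genes above the median, 7, 8 and 1 were called in these comparisons (21.9%, 25% and 3.12%), beside 23.1%, 26.7% and 2.41% of all genes above the median. Among the 26 genes below it limma called 0 in each comparison, where 2.99%, 3.46% and 0.394% of all genes below the median were called. At an unadjusted p under 0.05 these 26 genes gave 1, 2 and 4. The 2 arrays of one population did not overlap the 2 of the other for 32 of 58 genes between CD24+ cDC2 and cDC1 (55.2%, all genes 52%). They did not overlap for 36 between CD24- cDC2 and cDC1 (62.1%, all genes 52.4%) and for 30 between the cDC2 populations (51.7%, all genes 44.2%).

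**Figure D2:**
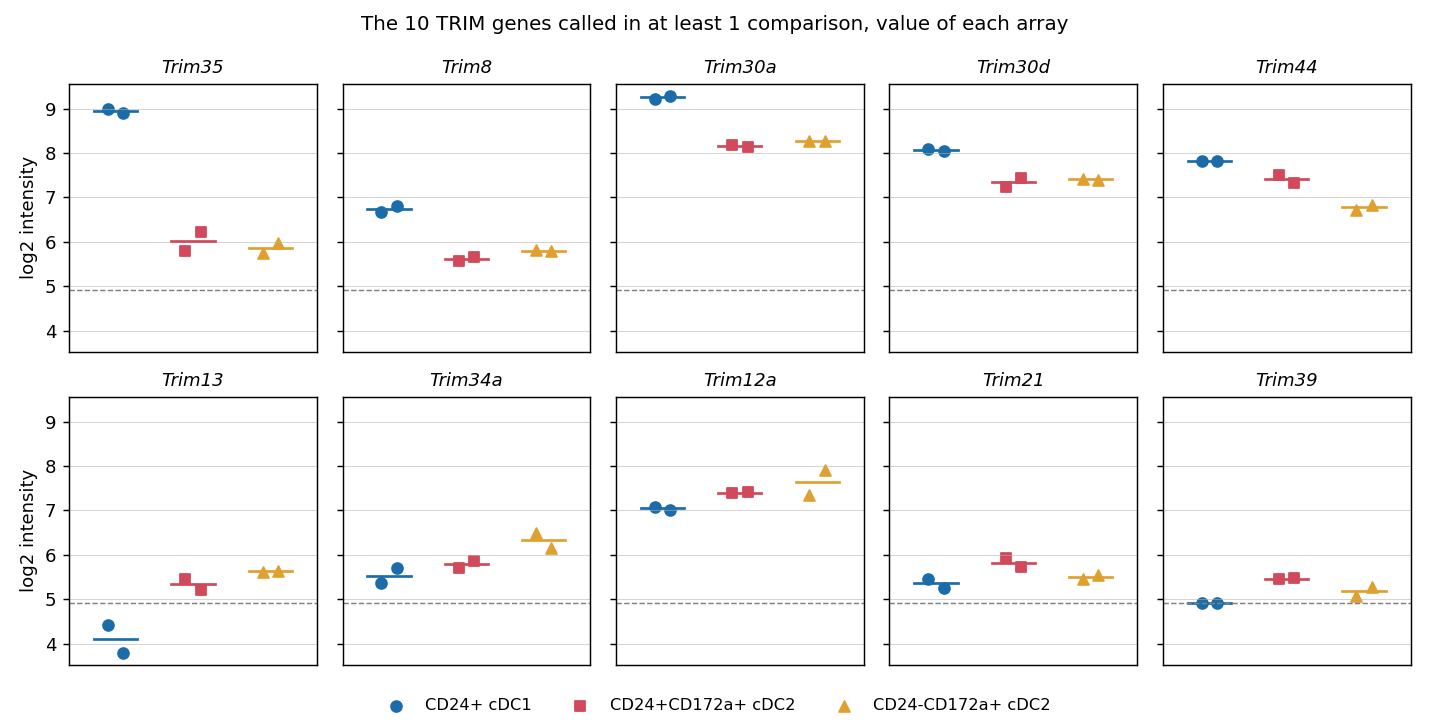
Each panel is 1 of the 10 TRIM genes called in at least 1 comparison; the vertical axis is log2 intensity, each point is 1 of the 2 arrays of a population, the short bar is their mean and the dashed line is the array median of 4.91. Trim35 drops from about 9 in cDC1 to about 6 in both cDC2 populations, Trim44 steps down from cDC1 through CD24+ to CD24- cDC2, and Trim13 is the 1 gene whose cDC1 arrays lie under the median while its cDC2 arrays lie over it.

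Regulators of innate sensing and interferon held 22 of the 58 genes, of which 15 were above the median and 5 were called. Among all genes 19.3% were called in at least 1 comparison, so this count was near the background. Trim35 and Trim8 fell in both cDC2 populations, Trim13 rose in both, and Trim21 and Trim39 rose in CD24+ cDC2. Trim35, a ligase best known for limiting IRF7, had the largest difference of the family. Its log2 intensity was 9.0 and 8.9 in cDC1, 5.80 and 6.22 in CD24+ cDC2, and 5.76 and 5.98 in CD24- cDC2. The cDC1 arrays were far above all 4 cDC2 arrays, and the cDC2 populations overlapped. The difference from cDC1 was -2.94 ± 0.16 (SE) in CD24+ cDC2, a 7.67-fold lower level, with adjusted p = 7.27e-07. In CD24- cDC2 it was -3.08 ± 0.16, or 8.45-fold lower, with adjusted p = 4.73e-07.

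Trim8, which acts on TAK1 and SOCS1 in NF-kB and cytokine signalling, read 6.68 and 6.81 in cDC1, 5.57 and 5.67 in CD24+ cDC2, and 5.82 and 5.79 in CD24- cDC2. No array of one population overlapped those of another. The level was 2.19-fold lower in CD24+ cDC2 (-1.13 ± 0.13, adjusted p = 0.000137) and 1.92-fold lower in CD24- cDC2 (-0.94 ± 0.13, adjusted p = 0.000489), while the cDC2 populations differed by -0.19 ± 0.13 (adjusted p = 0.562). Trim13, an endoplasmic reticulum membrane ligase with a role in protein degradation there, ran the other way. It read 4.43 and 3.79 in cDC1, 5.46 and 5.20 in CD24+ cDC2, and 5.62 and 5.63 in CD24- cDC2. The lower cDC1 array was near the 25th percentile of 3.72, and neither cDC2 population overlapped cDC1. It was 2.33-fold higher in CD24+ cDC2 (1.22 ± 0.19, adjusted p = 0.00149) and 2.85-fold higher in CD24- cDC2 (1.51 ± 0.19, adjusted p = 0.000334).

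Trim21, the cytosolic receptor for antibody-coated particles, read 5.45 and 5.26 in cDC1, 5.92 and 5.72 in CD24+ cDC2, and 5.45 and 5.54 in CD24- cDC2. Trim39, a ligase that stabilises the pro-apoptotic protein MOAP-1, read 4.92 and 4.91 in cDC1, 5.45 and 5.48 in CD24+ cDC2, and 5.07 and 5.28 in CD24- cDC2. In both genes CD24+ cDC2 lay above the other 2 populations without overlap. Against cDC1 the rise in CD24+ cDC2 was 0.47 ± 0.14 for Trim21 (1.38-fold, adjusted p = 0.047) and 0.55 ± 0.13 for Trim39 (1.47-fold, adjusted p = 0.017). In CD24- cDC2 the values were 0.14 ± 0.14 (adjusted p = 0.604) and 0.26 ± 0.13 (adjusted p = 0.243), and CD24+ against CD24- cDC2 gave 0.33 ± 0.14 (adjusted p = 0.321) and 0.29 ± 0.13 (adjusted p = 0.354), so neither gene was shown to differ between the cDC2 populations. Both calls were lost in each of the 4 fits without 1 of the compared arrays. Over all alternatives the adjusted p ran from 0.0242 to 0.267 for Trim21 and from 0.00833 to 0.0964 for Trim39.

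The other regulators did not pass in any comparison, and their differences lay between -0.42 and 0.54. Trim25, which ubiquitinates RIG-I, read 9.56 and 9.58 in cDC1, 9.31 and 9.34 in CD24+ cDC2, and 9.41 and 9.32 in CD24- cDC2. The cDC1 arrays were the highest, but the differences of -0.24 ± 0.12 (adjusted p = 0.279) and -0.20 ± 0.12 (adjusted p = 0.354) missed the threshold. Trim56, which acts against RNA viruses and on STING signalling, differed by 0.23 ± 0.14 in CD24+ cDC2 and 0.37 ± 0.14 in CD24- cDC2 (adjusted p = 0.377 and 0.114). Trim65, which acts on MDA5, differed by 0.14 ± 0.15 in CD24+ cDC2 (adjusted p = 0.653). Trim14, an adaptor of MAVS, and Trim26, which targets IRF3, both gave -0.26 in CD24+ cDC2 (adjusted p = 0.238 and 0.279). Trim27, a repressor of NF-kB and interferon kinases, ranged from 6.88 to 7.31 over all arrays, with the lowest and one of the highest values both in CD24- cDC2. Trim32, a ligase of muscle and of STING signalling, gave 0.38 ± 0.13 between CD24+ and CD24- cDC2 (adjusted p = 0.205). Trim59, a membrane-anchored regulator of NF-kB signalling, read 6.71 and 6.10 in cDC1 and 6.92 and 6.97 in CD24+ cDC2, a difference of 0.54 ± 0.19 (adjusted p = 0.105).

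The largest group of neighbours in the family is the TRIM5-like cluster, whose members are antiviral genes that have multiplied in rodents. On chromosome 7 of GRCm38.p6 the RefSeq order is Trim6, Trim34a, Trim5, Trim12a, Trim34b, Trim12c, Gm38525, Trim30b, Trim30c, Trim30a and Trim30d, that is 10 TRIM genes, of which 6 had a probe set of their own. Trim30a and Trim30d at 1 end were lower in both cDC2 populations, and Trim34a and Trim12a were higher in CD24- cDC2. The promoters of these genes and of Trim21 are shown because they share the core of the interferon-stimulated response element (ISRE), a sequence known from promoters that interferon switches on, at or close to the start of transcription. The core was searched as GAAA, any 2 bases and GAAA again, on both strands, in RefSeq windows from 250 bases before to 50 bases after each start (GRCm38.p6). Each line gives 100 bases of the gene's strand from 70 bases before the start to 30 after it, 5′ to 3′, with the ISRE core in capitals. In Trim21 the capitals cover 2 overlapping matches.

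Trim34a, chr7:104244387-104244486, plus strand: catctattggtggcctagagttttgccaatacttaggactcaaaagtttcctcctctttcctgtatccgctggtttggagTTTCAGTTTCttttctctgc
Trim12a, chr7:104315466-104315565, minus strand: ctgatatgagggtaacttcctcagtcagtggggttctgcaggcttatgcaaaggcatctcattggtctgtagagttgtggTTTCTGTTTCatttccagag
Trim12c, chr7:104353320-104353419, minus strand: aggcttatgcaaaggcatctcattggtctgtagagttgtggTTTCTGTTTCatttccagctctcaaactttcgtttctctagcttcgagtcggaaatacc
Trim30a, chr7:104465164-104465263, minus strand: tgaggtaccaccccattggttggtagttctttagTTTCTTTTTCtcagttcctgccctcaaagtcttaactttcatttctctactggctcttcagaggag
Trim30a, second start, chr7:104446096-104446195, minus strand: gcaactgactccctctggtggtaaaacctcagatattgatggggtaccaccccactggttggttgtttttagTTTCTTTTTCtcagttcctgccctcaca
Trim30d, chr7:104507820-104507919, minus strand: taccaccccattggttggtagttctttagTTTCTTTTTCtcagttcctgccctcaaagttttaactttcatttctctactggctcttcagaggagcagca
Trim21, chr7:102565453-102565552, minus strand: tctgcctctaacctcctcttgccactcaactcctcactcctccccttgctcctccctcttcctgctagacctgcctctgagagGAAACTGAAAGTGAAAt

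Aligned on the match with 25 bases on each side, Trim30a and Trim30d were identical at 59 of 60 bases (98.3%) and Trim12a and Trim12c at 57 (95%). The 2 starts of Trim30a matched at 46 bases (76.7%), whereas Trim12a and Trim34a matched at 27 (45%). The near copies therefore share this stretch, and they are not independent of each other in any count of matches.

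Trim30a, which degrades TAB2 and TAB3 and so restrains NF-kB, read 9.22 and 9.29 in cDC1, 8.17 and 8.14 in CD24+ cDC2, and 8.28 and 8.28 in CD24- cDC2. It was 2.14-fold lower in CD24+ cDC2 (-1.10 ± 0.12, adjusted p = 0.000134) and 1.97-fold lower in CD24- cDC2 (-0.98 ± 0.12, adjusted p = 0.000311). Trim30d, its close relative, read 8.10 and 8.04 in cDC1, 7.23 and 7.45 in CD24+ cDC2, and 7.41 and 7.40 in CD24- cDC2. Both cDC1 arrays of both genes were above all 4 cDC2 arrays. The difference of Trim30d was -0.73 ± 0.13 in CD24+ cDC2 (1.66-fold lower, adjusted p = 0.00334) and -0.67 ± 0.13 in CD24- cDC2 (1.59-fold lower, adjusted p = 0.0056). Whether probes of one gene also bind transcripts of its near-identical relative was not tested, so the values of the Trim30 genes and of the Trim12 genes are uncertain to that extent.

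Trim34a, a relative of TRIM34, which restricts retroviral capsids together with TRIM5, read 5.35 and 5.70 in cDC1, 5.70 and 5.87 in CD24+ cDC2, and 6.50 and 6.15 in CD24- cDC2. CD24- cDC2 lay above both other populations, and it exceeded cDC1 by 0.80 ± 0.17 (1.74-fold, adjusted p = 0.00837). CD24+ cDC2 differed from cDC1 by 0.25 ± 0.17 (adjusted p = 0.436) and from CD24- cDC2 by -0.54 ± 0.17 (adjusted p = 0.167). The call was lost without cDC1 replicate 1 and without CD24- cDC2 replicate 1, with an adjusted p of up to 0.0863. Trim12a, a mouse relative of TRIM5, read 7.09 and 7.01 in cDC1, 7.39 and 7.41 in CD24+ cDC2, and 7.36 and 7.92 in CD24- cDC2. Its rise of 0.59 ± 0.17 in CD24- cDC2 (1.5-fold, adjusted p = 0.0444) rested largely on the array at 7.92, without which it was 0.31. That call was lost under 7 of the 15 alternatives, and its adjusted p ranged from 0.0057 to 0.254.

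The remaining members of the cluster were not called. Trim12c read 5.85 and 5.41 in cDC1, 4.87 and 5.82 in CD24+ cDC2, and 5.66 and 5.39 in CD24- cDC2, so its populations overlapped and its SE was 0.27. Trim6, which builds unanchored ubiquitin chains in interferon signalling, was the 1 member of the cluster below the median and read 3.97 to 4.43 over all arrays. A second run of neighbours, Trim26, Trim15, Trim10, Trim40 and Trim31 on chromosome 17, had all 5 genes measured and none called.

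**Figure D3:**
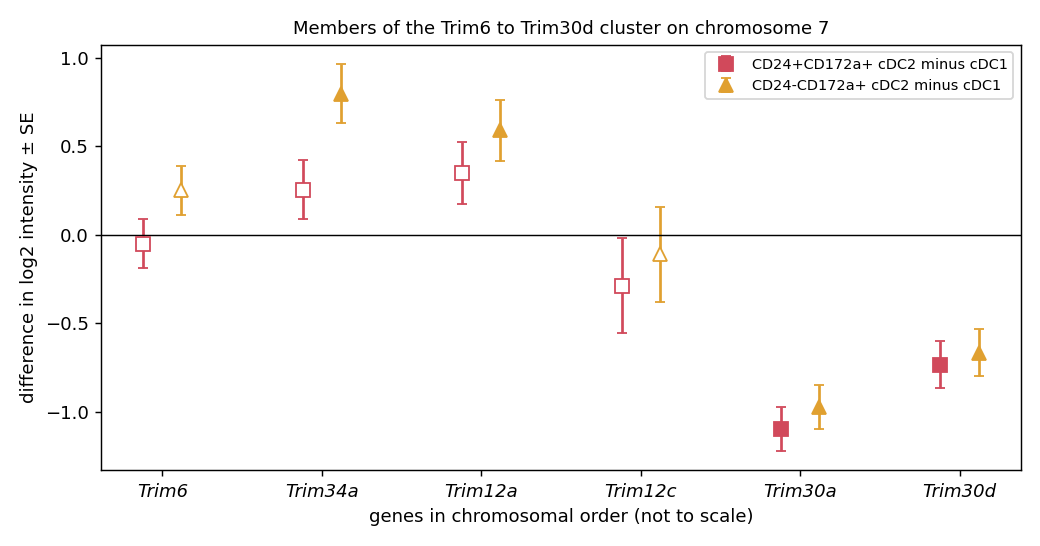
The vertical axis is the log2 difference from cDC1 (bars are the SE, 2 arrays a population) for the 6 measured genes of the TRIM5-like cluster, placed in their RefSeq order along chromosome 7; filled symbols passed an adjusted p under 0.05 and open symbols did not. Trim30a and Trim30d lie below 0 in both cDC2 populations, and Trim34a and Trim12a lie above 0 with a call in CD24- cDC2 only.

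The ISRE core was not limited to the genes printed above. A RefSeq window was found for 46 of the 58 members, 9 of them with several starts, and not for Trim3, Trim8, Trim11, Trim14, Trim16, Trim29, Trim33, Trim35, Trim36, Trim50, Trim55 and Trim65. The core was present in 8 of the 46 (17.4%), against 1079 of 27025 genes in the table (3.99%). These were Trim2, Trim12a, Trim12c, Trim21, Trim26, Trim30a, Trim30d and Trim34a. The core of the gamma-activated site (GAS), TTCNNNGAA, searched in the same way, was in 5 members (10.9%), against 9.55% of genes. Of the 8 members with an ISRE core, 5 were called in at least 1 comparison (62.5%) and 7 were above the median. Of the 5, all but Trim21 are neighbours in the TRIM5-like cluster, Trim30a and Trim30d being near copies, so they are not independent genes. Of the 38 members with a window but no core, 3 were called (7.89%) and 18 were above the median. Trim35 and Trim8, both called against cDC1, have no window and are in neither count. Among all genes tested, 142 of 607 with the core were called (23.4%) and 2925 of 15007 without it (19.5%). Of these genes, 53% with the core and 54.3% without it were above the median. Whether the core goes with the calls was not tested. The called members with the core did not share a direction, since Trim30a and Trim30d were lower in cDC2 and Trim12a, Trim21 and Trim34a were higher in 1 cDC2 population. A match of letters is not evidence of binding.

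**Figure D4:**
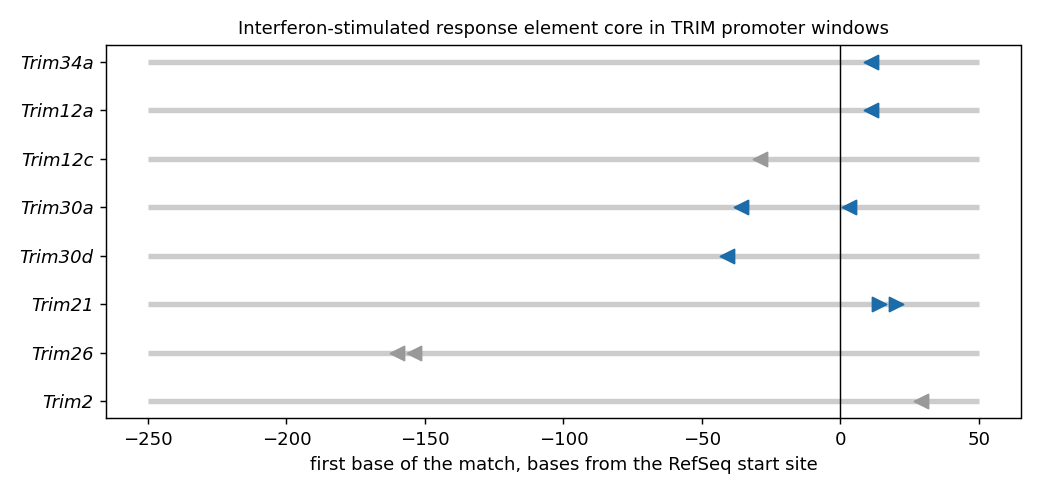
The horizontal axis is the distance in bases from the RefSeq start, and each arrow is a match to the ISRE core in the window of 1 of the 8 TRIM genes that have it, pointing along the strand that reads GAAA; Trim30a has 2 starts. Blue marks genes called in at least 1 comparison and grey marks genes that were not called; 7 of the 8 genes have a match within about 50 bases of the start, and Trim26 has its overlapping pair at -160 and -154.

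Trim44 was the 1 member called between the cDC2 populations. It lacks the RING finger and has a zinc finger of the kind found in ubiquitin proteases, and it stabilises other proteins, TRIM17 and MAVS among them. Its log2 intensity was 7.82 and 7.82 in cDC1, 7.51 and 7.33 in CD24+ cDC2, and 6.72 and 6.84 in CD24- cDC2. The 3 populations did not overlap, with CD24+ cDC2 between the other 2. It was 2.05-fold lower in CD24- cDC2 than in cDC1 (-1.04 ± 0.13, adjusted p = 0.000307), whereas CD24+ cDC2 differed from cDC1 by -0.40 ± 0.13 (adjusted p = 0.0768). CD24+ cDC2 exceeded CD24- cDC2 by 0.64 ± 0.13 (1.56-fold, adjusted p = 0.0459). This last call was kept in 5 of 15 alternatives and in none of the 4 fits without 1 of the compared arrays, with adjusted p from 0.0207 to 0.262. Beside it, the summed monocyte and macrophage markers were 10.87 to 11.11 in CD24+ cDC2 (6 of 9 above the median). They were 11.87 to 11.97 in CD24- cDC2 (8 of 9) and 11.79 to 11.85 in cDC1 (4 of 9). Lyz2 was the brightest of them, at 10.2 in CD24+ cDC2, 11.3 in CD24- cDC2 and 11.6 in cDC1. Adgre1 read 7.77, 8.89 and 4.17 in the same order, and Csf1r 8.54, 8.37 and 4.77. The members of this list therefore did not move together. In CD24+ and CD24- cDC2 the summed plasmacytoid markers were 9.31 to 9.36 (5 of 6) and 8.71 to 8.74 (3 of 6), and the neutrophil markers 7.97 to 8.12 (4 of 6) and 7.24 to 7.43 (2 of 6). In cDC1 these lists were at 9.17 to 9.22 (5 of 6) and 6.84 to 7.18 (1 of 6). Their members went different ways too. Siglech read 5.86 in CD24+ cDC2 and 4.70 in cDC1, but Ccr9 5.29 and 7.07. S100a8 read 6.05 in CD24+ and 4.13 in CD24- cDC2, but Csf3r 5.42 and 5.89. The part of these markers in any comparison was not tested.

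The chromatin regulators of the TIF1 family had 4 members and no call. Trim28 (KAP1), the corepressor that zinc finger proteins recruit to silence retroelements, read 7.34 and 7.25 in cDC1, 7.39 and 7.52 in CD24+ cDC2, and 7.02 and 6.88 in CD24- cDC2. CD24- cDC2 was the lowest without overlap, at 0.51 ± 0.13 below CD24+ cDC2 (adjusted p = 0.0977) and at -0.35 ± 0.13 against cDC1 (adjusted p = 0.109). Trim33, which ubiquitinates SMAD4 and binds histone tails, read 7.73 and 7.64 in cDC1, 7.88 and 7.94 in CD24+ cDC2, and 7.40 and 7.62 in CD24- cDC2. Its difference between the cDC2 populations was 0.40 ± 0.13 (adjusted p = 0.202). Trim24, a nuclear receptor coregulator, ranged from 6.74 to 6.98 and overlapped in all populations, and Trim66, its germ cell relative, ranged from 4.30 to 4.68.

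The remaining groups had no call either, apart from Trim44. The 8 genes of cytoskeleton, neurons and development, 5 of them above the median, differed by -0.38 to 0.60. Trim37, a peroxisome and centrosome ligase, was nearest to the threshold among these in CD24+ cDC2 (0.60 ± 0.19, adjusted p = 0.0687). Trim36, a microtubule-associated ligase, gave 0.47 ± 0.15 in each cDC2 population (adjusted p = 0.071 and 0.0644). The 4 muscle genes, Trim54, Trim55, Trim63 and Trim72, were all below the median and differed by -0.29 to 0.32. The 6 genes of germ cells, embryo or red cells were also all below it and differed by -0.38 to 0.39, with Trim10 and Trim58 the farthest from 0 against cDC1. In the last group, besides Trim44, Trim7, a ligase of glycogen metabolism and of viral proteins, gave -0.42 ± 0.14 in CD24- cDC2 (adjusted p = 0.0654).

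Genes that work with TRIM proteins were read from lists in the same fit. The loss of a call without 1 array is given only for the genes named in a comparison. Some of the unnamed calls were lost as well. Their counts stand beside the shares of all genes given above, which were 7.11% higher and 6.52% lower in CD24+ cDC2 than in cDC1, 6.83% and 8.91% in CD24- cDC2, and 0.808% and 0.652% in CD24+ against CD24- cDC2. The medians over all genes were -0.03, 0.00 and -0.01. Among all genes above the array median, 23.1%, 26.7% and 2.41% were called in these comparisons, in either direction. Every gene of the ubiquitin enzyme, interferon receptor and signalling, and KAP1 lists below was above that median. For them these shares are the closer background. Of 15 measured ubiquitin E1 and E2 enzymes, 4 were higher and 2 lower in CD24+ cDC2 than in cDC1 (40% called, all genes 13.6%), and 3 were higher and 2 lower in CD24- cDC2 (33.3%, all genes 15.7%). The median difference of this list was 0.02 and -0.15. Ube2e2, an E2 of the UBE2E group, was 2.86 and 2.66 higher, and Ube2e3, its relative, 1.12 and 1.17 higher. Ube2n, which builds the lysine-63 chains used in NF-kB signalling, was lower, at -0.89 and -0.70, and the second of these calls was lost without CD24- cDC2 replicate 1. Between the cDC2 populations the enzymes gave 0 calls in limma and 0 genes at an unadjusted p under 0.05, and the smallest p values belonged to Ube2e1 (adjusted p = 0.382) and Ube2w (adjusted p = 0.48).

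The sensing list had 22 measured genes of RNA and DNA sensing, which many TRIM proteins act on, and of related innate signalling. Nod1 and Nod2, on this list, are not sensors of RNA or DNA. Of the 22 genes, 5 were higher, Nod1 among them, and 1 lower in CD24+ cDC2 than in cDC1 (27.3% called). In CD24- cDC2, 7 were higher, Nod1 and Nod2 among them, and 1 lower (36.4%). The medians were 0.13 and 0.29 (all genes -0.03 and 0.00). Ddx58 (RIG-I) was higher by 2.20 and 2.45 and Nod1 by 1.33 and 1.48. The sensing list had 1 call between the cDC2 populations, Ifih1 (MDA5), lower in CD24+ cDC2 at -1.03 ± 0.15, a call kept in 1 of the 4 fits without 1 compared array. Of 16 interferon receptor and signalling genes, 4 and 5 were higher and 2 and 2 lower (37.5% and 43.8% called), with Irf4 and Irf8, the factors of cDC2 and cDC1, at the 2 ends. Of 27 measured interferon-stimulated genes, 11 were higher and 3 lower in CD24+ cDC2 than in cDC1 (51.9% called) and 14 were higher and 4 lower in CD24- cDC2 (66.7%), with medians of 0.37 and 0.86. Between the cDC2 populations 0 of them were higher and 3 lower in CD24+ cDC2 (11.1% called, all genes 1.46%), with a median of -0.26. At an unadjusted p under 0.05 in limma, 13 differed, 12 of them lower. The adjusted threshold was passed by only 3 genes. These were Ifit3 (-1.02 ± 0.14), Rtp4 (-0.93 ± 0.13) and Oasl1 (-0.68 ± 0.14), and of the 4 fits without 1 compared array Ifit3 and Rtp4 kept the call in 1 each and Oasl1 in none. Against cDC1 the TRIM family had 3 genes higher and 4 lower, and 3 higher and 5 lower.

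A KAP1 silencing list had 17 measured genes. It joins partners of KAP1 with other silencing factors, such as Dnmt1, Uhrf1 and Tasor, so it is not 1 complex. KAP1 itself (Trim28) is not on it and was not called (limma adjusted p = 0.0977). Of the 17 genes, 3 were higher in CD24+ than in CD24- cDC2 and 0 lower (17.6% called). Among all genes 1.46% were called, and among all genes above the median 2.41%. The list had a median difference of 0.37 (all genes -0.01). At an unadjusted p under 0.05 in limma, 9 differed, 0 of them lower. Only 3 genes passed the adjusted threshold. These were Cbx5 and Cbx1, which read methylated histone H3, and Dnmt1, the maintenance DNA methyltransferase. Their differences were 0.90 ± 0.15, 0.71 ± 0.14 and 0.87 ± 0.14, but of the 4 fits without 1 compared array Cbx5 kept its call in 1 and the other two in none. Against cDC1, 5 genes of the list were higher and 1 lower in CD24+ cDC2 (35.3%, median 0.21), and 1 was higher and 4 lower in CD24- cDC2 (29.4%, median -0.29). Of 11 family relatives under other symbols, 2 were higher in CD24+ cDC2 than in cDC1 (18.2%), and 2 were higher and 1 lower in CD24- cDC2 (27.3%). Mefv (pyrin) was higher by 1.04 and 1.16 and Mid1, a microtubule-associated ligase, by 1.58 and 1.47. Pml, the organiser of nuclear bodies, was lower in CD24- cDC2 at -0.46 ± 0.12. The Mid1 calls were lost without CD24+ cDC2 replicate 2 in the first comparison and without cDC1 replicate 1 or CD24- cDC2 replicate 2 in the second, and the Pml call in each of the 4 fits without 1 compared array.

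**Figure D5:**
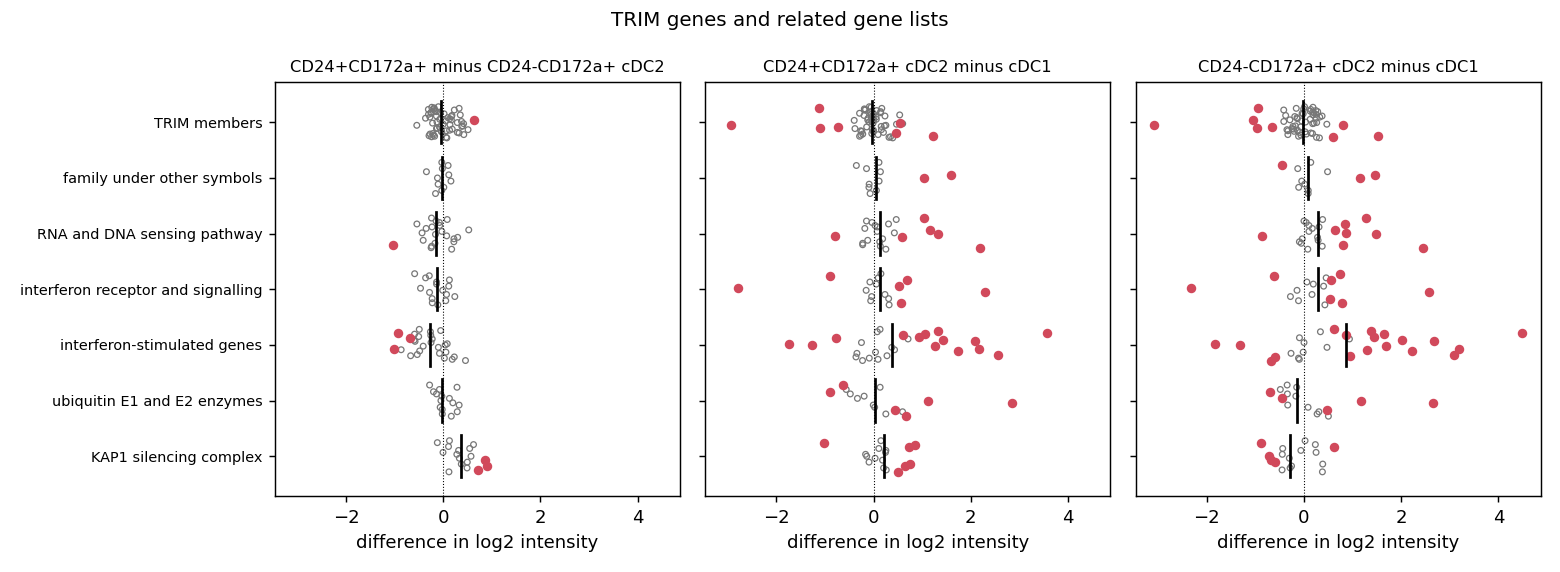
The horizontal axes give the difference in log2 intensity in each of the 3 comparisons, 1 panel each, for every measured gene of the TRIM family and of the related lists; filled red points passed an adjusted p under 0.05, open grey points did not, and black bars are list medians. The TRIM family centres near 0 in all 3 comparisons, with Trim35 far below in the 2 comparisons against cDC1. The interferon-stimulated genes have medians of 0.37 and 0.86 against cDC1, and the KAP1 silencing list has a median of 0.37 between the cDC2 populations.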

How the data were processed

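The authors measured RNA of the sorted cells on Affymetrix mouse arrays. Per the submitters' processing notes, values came from Expression Console with RMA; versions and the build are not given in the sources used here. The deposited table holds RMA intensity on a linear scale, and log2 of it was taken here. Probe sets were named from the platform annotation: of 28853, 21789 had 1 symbol, 1621 several and 5443 none. A gene with several probe sets (999 genes) kept the brightest. limma 3.58.1 in R 4.3.3 (lmFit, eBayes) was fitted once to 19938 genes on 6 arrays, with Benjamini-Hochberg adjustment over all genes and a threshold of 0.05. With 2 arrays a population, the number of arrays limits the precision. Fits were tested on simulated data. In 10 simulations of the comparison between the cDC2 populations, 86.1% of 2-fold changes were called. Of the smallest changes put in, which were under 2-fold, only 7.2% were called. A gene that was not called may therefore still differ by less than 2-fold. A group mean under the 25th percentile was treated as background. Raw scanner output was not used here.

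Named were all called members, the TRIM5-like and TIF1 groups, chosen innate regulators, the members nearest the median, the 2 most different uncalled members of other groups, and up to 3 called genes a related list. The members and lists were chosen with earlier results of these data known. Alternatives changed the filter, probe set rule, normalisation, variance model, groups fitted, replicate block and arrays.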

Additional observations from a re-analysis of the deposited data

How the results depend on the processing

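Of the 16 calls of TRIM genes, 11 (6 genes) held in all 15 alternatives: Trim35, Trim8, Trim30a, Trim30d and Trim13 against cDC1 in both cDC2 populations, and Trim44 in CD24- cDC2. No member changed direction with a call on either side in 2532 recomputed values; 33 lost a call and 16 gained one. The 1 call between the cDC2 populations became 0 with all probe sets tested separately, cyclic loess, quantile normalisation again and only the 2 groups fitted, and 0 to 0 without 1 array (unadjusted p under 0.05 in limma: 11, 10, 9, 11, and 6 to 11). Without 1 array, 5 to 7 members were called for CD24+ cDC2 against cDC1 and 6 to 8 for CD24- cDC2. Over all genes, the cDC2 comparison gave 291 calls, 464 with an intensity trend and robust variance, 187 with only the 2 groups, and 20 to 187 without 1 array. Against cDC1 the ranges without 1 array were 1781 to 2769 (main 2718) and 1922 to 2839 (main 3137). Cyclic loess moved the cDC2 split from 161 higher and 130 lower to 126 and 160. With a line at the 25th percentile, 53 members lay above it. With a replicate block the member calls were 1, 8 and 8, and over all genes 411, 2918 and 3323. Deviations of same-numbered arrays correlated at 0.0242 to 0.0838. With 2 arrays a population, any positive value makes each array correlate best with its own number. The check therefore cannot decide whether same-numbered arrays were pairs, and the main fit did not pair them. Gained calls included Trim37 in CD24+ cDC2 (adjusted p = 0.0274 without CD24+ cDC2 replicate 1). The causes were not tested.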

Other observations

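Several probe sets of TRIM genes carry more than 1 symbol and lie outside the rule for members; they are given as values, with no test. The probe set shared by Trim5, Trim12c and Trim12a read 7.37 and 7.24 in cDC1, 7.92 and 7.97 in CD24+ cDC2, and 7.76 and 8.07 in CD24- cDC2. The one shared by Trim5 and Trim12c read 6.13 and 6.04, 6.54 and 6.83, and 6.55 and 6.68 in the same order. Both had all 4 cDC2 arrays above the cDC1 arrays, as Trim12a did with its own probe set. Trim12c, which both probe sets also name, overlapped between the populations with its own probe set. The probe set of Trim30b and Gm38525, which lie in the same cluster on chromosome 7 as Trim30a, read 5.82 and 5.96 in cDC1, 5.44 and 5.39 in CD24+ cDC2, and 5.96 and 6.06 in CD24- cDC2, so CD24+ cDC2 was the lowest without overlap. The pseudogene Trim30e-ps1 ranged from 4.61 to 4.92, with all populations overlapping.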
